A study of Homo sapiens with 12 samples.

Results

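The 85 genes described here encode proteins of the cytosolic ribosome and were taken from the 19923 protein-coding genes of the count files by name. The rule kept symbols made of RPL or RPS with a number, among them the stalk proteins RPLP0, RPLP1 and RPLP2, and added RPSA and FAU. Y-linked copies were left out. Of the 85 genes, 78 form the standard set, with 46 in the large subunit and 32 in the small subunit. The other 7 are paralogs outside the standard set: RPL3L, RPL7L1, RPL10L, RPL22L1, RPL26L1, RPL39L and RPS27L. The cells were SK-N-BE2 and NGP, MYCN-amplified neuroblastoma lines labelled wild type, treated for 6 days with STM2457 or DMSO. STM2457 inhibits METTL3, the enzyme that places N6-methyladenosine on messenger RNA. The dose was 12 µM in SK-N-BE2 but 1 µM in NGP, and each of the 4 groups had 3 replicates, which gave 12 libraries. Line, dose and sequencing run changed together, so a difference between the lines cannot be told apart from one of dose or run.

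Each ribosome carries a single copy of most of these proteins, and proliferating cells spend much of their transcription on them. Most of the mRNAs begin with a cytosine followed by a run of pyrimidines, the 5′ terminal oligopyrimidine (TOP) motif, through which mTOR, LARP1 and related factors govern their translation and stability together. The genes have also left many processed pseudogenes in the genome, which makes their reads hard to place.

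The start-site sequences of the genes on which the results turn are shown first, because this motif is the feature that the family is known to share. RefSeq start sites (GRCh38.p14) were found for 68 of the 85 genes. Each window holds 30 bases of the sense strand, 8 before the annotated start and the rest from it. Capitals mark a cytosine at the annotated start with the unbroken pyrimidine run that follows it, where at least 4 more pyrimidines follow.
RPL12: atttccggCCTCTCggctttcggctcggag
RPS18: cttccgctCTCTCTTCCacaggaggcctac
RPS6: agttggccCTCTTTTCCgtggcgcctcgga
RPL14: tcttcttcCTTCTCgcctaacgccgccaac
RPL24: gattctctCTTTCTTTTCgccatcttttgt
RPL7A: tccctttcCTTTCTCTCTCCTCCCgccgcc
RPL22: ctcacctcCCTTTCTaactccgctgccgcc
RPL22L1: gtagcttcCTCTCTgctctcgcggccgact
RPS27: ctttcgctCCTTTCCggcggtgacgaccta
RPS27L: tgccgagcgcagatcgcttgcagcttgcta
RPL26: gtgtagttCTCTTCCCTTTTgcggccatca
RPL26L1: caggggtcggcgaacgaaacgcggagctcg

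The windows lie at chr9:127451385-127451414 (minus strand) for RPL12, chr6:33272067-33272096 (plus) for RPS18 and chr9:19380215-19380244 (minus) for RPS6. Those of RPL14 (chr3:40457331-40457360, plus), RPL24 (chr3:101686697-101686726, minus) and RPL7A (chr9:133348210-133348239, plus) belong to genes whose response differed between the lines. The paralog windows are chr3:170870174-170870203 (minus) for RPL22L1, chr15:63157456-63157485 (minus) for RPS27L and chr5:172958721-172958750 (plus) for RPL26L1, which also has a second annotated start. Their partners lie at chr1:6199574-6199603 (minus) for RPL22, chr1:153990754-153990783 (plus) for RPS27 and chr17:8383172-8383201 (minus) for RPL26. Among standard genes with a start site, 47 of 63 (74.6%) had such a run exactly at an annotated start, of 5 to 19 bases with a median of 8. The same was true of 1 of 5 paralogs, RPL22L1, and of 953 of 15085 genes overall (6.32%). RPS27L and RPL26L1 had none there, whereas their partners RPS27 and RPL26 did. When the run could begin up to 10 bases to either side of the start, 90.5% of the standard genes and 40.4% of all genes held one. A match describes the letters of the window and not a working motif.

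The libraries held between 47242379 and 58159937 counted reads. Of 10 adrenergic neuroblastoma markers, 9 reached 1 CPM (read count scaled by library size) in each line. Their summed level was 7390 to 9598 CPM in SK-N-BE2 and 5774 to 7306 CPM in NGP, against at most 7.38 CPM for 3 immune markers. Some control libraries stood apart in the genes of interest. NGP DMSO replicate 1 was the highest of its line's 6 libraries for 79 of the 83 ribosomal protein genes tested, and SK-N-BE2 DMSO replicate 2 for 71 of 82. In NGP DMSO replicate 1 the shortest 20% of all genes lay 0.25 above the line mean on the log2 scale and the longest 20% at -0.22. The 20% with the highest GC content lay 0.33 above the mean there and the 20% with the lowest at -0.20. In SK-N-BE2 DMSO replicate 2 the shortest 20% lay 0.09 above and the longest at -0.14. The part of these trends in the results was not tested beyond the fits with length and GC offsets given with them. Counts over the ribosomal protein genes in NGP, and the NGP values of most genes described in detail, are also given without that library.

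**Figure D1:**
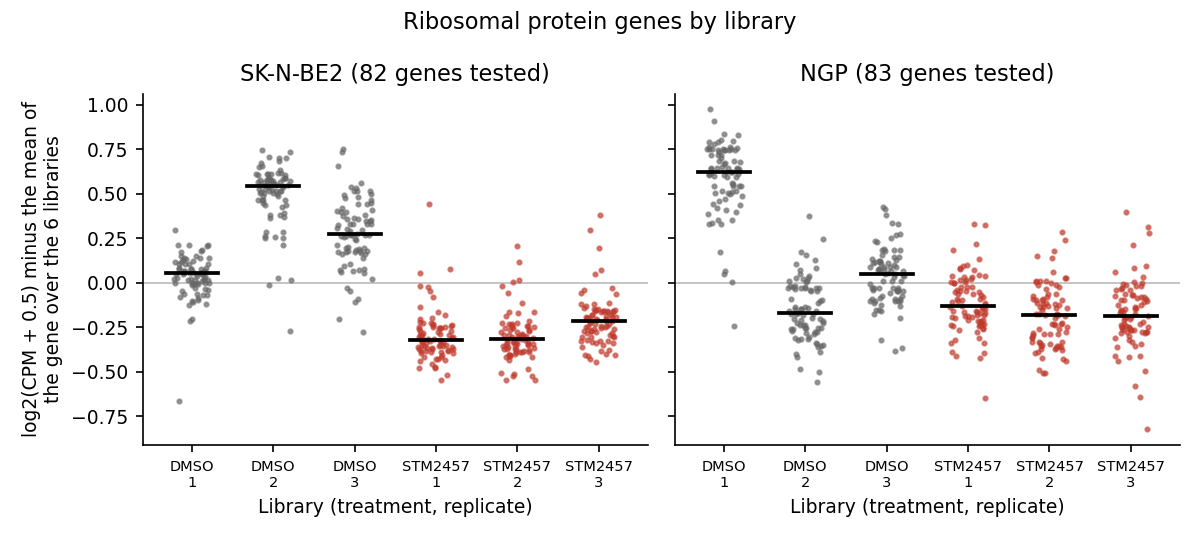
Each point is a ribosomal protein gene in a library, placed by its log2(CPM + 0.5) minus its mean over the 6 libraries of the line, and each bar is the median of the library. The bars of the STM2457 libraries lie between -0.32 and -0.13, while DMSO replicate 2 of SK-N-BE2 (0.54) and DMSO replicate 1 of NGP (0.62) lie highest. In NGP the bar of DMSO replicate 2 (-0.17) lies within the range of the treated libraries (-0.18 to -0.13).

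Ribosomal protein genes took a smaller share of the reads with STM2457 in every treated library of both lines. In SK-N-BE2 the 85 genes held 7.85%, 10.7% and 9.33% of the counted reads in the DMSO replicates and 5.98%, 5.98% and 6.18% in the STM2457 replicates. The means were 9.30% ± 1.42 and 6.04% ± 0.116 (SD, n = 3), a difference of -3.26 percentage points. The treated libraries lay close together and below every control. In bulk RNA a lower value from fewer cells of a kind cannot be told apart from one of less RNA per cell, and the shares are relative to all other reads.

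In NGP the shares were 11.3%, 7.17% and 8.12% with DMSO and 6.76%, 6.50% and 6.57% with STM2457. The means were 8.85% ± 2.14 and 6.61% ± 0.133 (SD, n = 3), a difference of -2.24 points. The groups did not overlap, but DMSO replicate 2 lay only just above the treated libraries, and without DMSO replicate 1 the difference was -1.03 points. In SK-N-BE2 leaving out DMSO replicate 2 gave -2.55 points. In NGP the mitochondrially encoded genes, which sit in the same denominator, rose in share from 3.15% ± 0.439 to 6.81% ± 0.350. With those genes left out of the total, the ribosomal protein share of NGP was 9.14% ± 2.25 and 7.09% ± 0.169 (SD, n = 3). In SK-N-BE2 the mitochondrially encoded share was 9.91% ± 1.46 with DMSO and 8.96% ± 1.13 with STM2457.

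**Figure D2:**
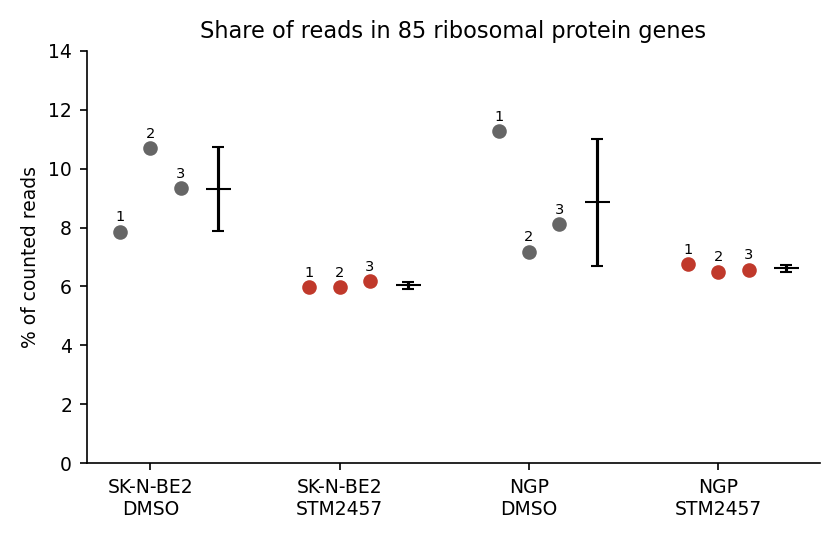
The vertical axis is the percentage of counted reads that fell in the 85 genes, with each point a library marked by its replicate number and the bar beside each group its mean and SD (n = 3). All 6 STM2457 libraries lie between 5.98% and 6.76%, and NGP DMSO replicate 1 is the highest of the 12 at 11.3%.

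Both subunits took part in the lower share. In SK-N-BE2 the large-subunit genes went from 5.52% ± 0.796 to 3.62% ± 0.0711 of reads and the small-subunit genes from 3.74% ± 0.626 to 2.39% ± 0.0454 (SD, n = 3). In NGP the large subunit went from 5.32% ± 1.24 to 4.06% ± 0.0616 and the small subunit from 3.49% ± 0.897 to 2.52% ± 0.0731. No test is given for these sums.

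Gene by gene, the fall in SK-N-BE2 was nearly uniform. Of 82 genes tested, 75 fell, 1 rose and 6 were not called by edgeR's quasi-likelihood test at an adjusted p of 0.05. Of all 14013 genes tested 54.7% were called, 27.8% lower and 26.9% higher. All 3 STM2457 libraries lay below all DMSO libraries for 72 members, and 29.1% of all genes tested did so. The median log2 fold change was -0.63 (quartiles -0.74 and -0.53), beside -0.02 over all genes tested. In the large subunit 43 of 46 standard genes fell and in the small subunit 30 of 31. Leaving out each library in turn gave 72 to 75 genes lower, and 73 of the 76 calls held throughout, with RPS27L, RPL17 and RPS9 the exceptions. The median ran from -0.74 without DMSO replicate 1 to -0.48 without DMSO replicate 2.

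RPL12, a large-subunit protein at the base of the stalk, had the largest fall. It measured 1098, 1451 and 1274 CPM with DMSO and 612, 620 and 655 CPM with STM2457. The log2 fold change was -1.06 (SE 0.11) and its edgeR adjusted p 3.59e-06. Its groups did not overlap, and with all libraries no other gene of the set passed a log2 fold change of 1 in this line. Without DMSO replicate 2, no called gene of the set passed it. The same held with all libraries and length and GC offsets, where the lowest value, -0.94, belonged to a small-subunit gene. RPS7, a small-subunit protein that also binds MDM2, stood at 2117, 2923 and 2433 CPM with DMSO and 1315, 1381 and 1374 CPM with STM2457 (log2 fold change -0.91, SE 0.12).

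RPS6, the small-subunit substrate of the S6 kinases, gave 2207, 3253 and 2620 CPM with DMSO and 1427, 1532 and 1508 CPM with STM2457 (log2 fold change -0.89, SE 0.13). RPS18 of the small-subunit head stood at 1953, 2971 and 2272 CPM and then 1291, 1337 and 1361 CPM (-0.89, SE 0.13). RPL36 (-0.92, SE 0.16) and RPL8 (-0.88, SE 0.11), both of the large subunit, complete the 6 largest falls. For these 6 genes every treated library lay below every control, and the edgeR adjusted p was at most 0.00035.

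The 6 genes not called in SK-N-BE2 were 4 standard genes and 2 paralogs. RPL41, which encodes the smallest ribosomal protein, measured 371, 512 and 371 CPM with DMSO and 443, 431 and 449 CPM with STM2457 (log2 fold change 0.04, edgeR adjusted p = 0.789). RPL22 measured 245, 283 and 227 CPM and then 240, 242 and 234 CPM (-0.11, edgeR adjusted p = 0.314). In both genes the groups overlapped, with DMSO replicate 2 the highest library. RPS10 and RPL36A, at -0.25 and 0.32, were counted at only 2.39 to 3.68 and 4.49 to 7.33 CPM. RPL7L1 and RPL22L1 had log2 fold changes of -0.12 and 0.11. RPL3L and RPL10L held too few reads to be tested.

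In NGP fewer of the genes were called, and how many depended on single libraries. Of 83 genes tested, 24 fell, 3 rose and 56 were not called by edgeR's test. Of all 13610 genes tested 41.7% were called, 22.2% lower and 19.4% higher. The median log2 fold change was -0.39 (quartiles -0.56 and -0.16), beside -0.03 over all genes tested. All 3 STM2457 libraries lay below all DMSO libraries for 33 members, while 27.8% of all genes tested did so. Leaving out a single library moved the count of calls, in either direction, from 27 to as few as 6 and as many as 46. It was 7, 8 and 6 without STM2457 replicate 1, 2 or 3, 46 without DMSO replicate 2 and 20 without DMSO replicate 3. RPL5, RPL17, RPL22L1 and RPS18 were the 4 genes called without each library in turn.

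Without DMSO replicate 1, 31 genes were lower and 10 higher, with 29.7% and 27.6% of all 13776 genes tested called in those directions (57.3% in all). The median log2 fold change was then -0.10. Of the 24 genes lower with all libraries, 23 were lower without it, and 8 others were added, among them the stalk protein RPLP0 and RPS19, a gene of Diamond-Blackfan anaemia. The 10 genes higher were RPL14, RPL23, RPL24, RPL28, RPL7A, RPS10, RPS13, RPL26L1, RPS27L and RPL3L. Against the remaining controls, the STM2457 libraries lay wholly below for 33 genes, wholly above for 13 and overlapped for 37, while 37.5% of all genes tested lay wholly below and 35.0% wholly above. With all libraries and offsets for the length and GC trend of each one, 41 genes were lower, as were 27.1% of all genes tested. With those offsets and no DMSO replicate 1, 44 were lower and 10 higher, beside 30.9% and 31.0% of all genes tested.

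**Figure D3:**
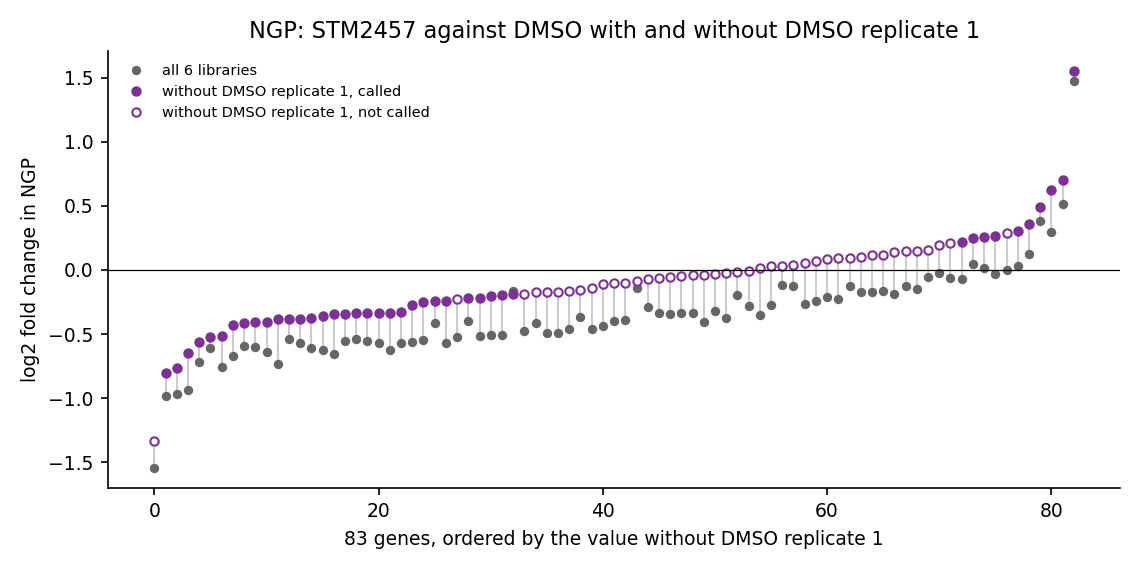
Each of the 83 genes tested in NGP is shown by its log2 fold change with all 6 libraries (grey) and without DMSO replicate 1 (purple, filled where the edgeR adjusted p was under 0.05). With all libraries 74 genes lie below 0 and without that library 54 do, and RPL22L1 and RPS18 near the left end and RPL26L1 and RPL3L at the right keep their sign in both.

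Among the 6 largest falls in NGP was RPS18. It measured 3064, 1945 and 2295 CPM with DMSO and 1296, 1213 and 1221 CPM with STM2457. The log2 fold change was -0.97 (SE 0.16), with 0.00186 as the edgeR adjusted p. Every treated library lay below every control, and without DMSO replicate 1 the log2 fold change was -0.77. RPL5, a large-subunit protein that carries an rRNA into the ribosome and can bind MDM2, measured 2378, 1615 and 1916 CPM and then 1218, 1180 and 1186 CPM (log2 fold change -0.72, SE 0.14, and -0.56 without DMSO replicate 1).

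RPS3A stood at 1437, 806 and 1052 CPM with DMSO and 671, 651 and 623 CPM with STM2457 (log2 fold change -0.76, SE 0.19). RPS15A was at 469, 257 and 262 CPM and then 215, 178 and 202 CPM (-0.73, SE 0.22). RPL8, near the peptidyl transferase centre, had -0.67 (SE 0.19). Without DMSO replicate 1 these values were -0.52, -0.39 and -0.43, all called. Their edgeR adjusted p values were 0.012, 0.0297 and 0.0195, and each call was lost without at least 1 library, to at most 0.117 for RPS15A and 0.0761 for RPL8. RPL13 had a low value of -0.94 (SE 0.29, edgeR adjusted p = 0.029), but its groups overlapped: 2981, 1521 and 2043 CPM with DMSO and 969, 1586 and 859 CPM with STM2457. Without DMSO replicate 1 it was called at -0.64. Within the treated group RPL13 was high in replicate 2, a library in which the deviations of the members rose with GC content (r = 0.39 over 83 genes).

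The genes called lower in both lines numbered 21, or 28 when NGP DMSO replicate 1 was left out, while 10.8% and 13.0% of all genes tested in both lines were called lower in both. By the smaller of the changes the largest of the 21 were RPS18 (-0.89 in SK-N-BE2 and -0.97 in NGP), RPL13 (-0.80 and -0.94), RPS3A (-0.77 and -0.76), RPL5 (-0.82 and -0.72), RPL8 (-0.88 and -0.67) and RPL9 (-0.76 and -0.63). RPL9 measured 1035 to 1532 CPM with DMSO and 730 to 759 CPM with STM2457 in SK-N-BE2, and 1174 to 2060 CPM and then 909 to 1009 CPM in NGP, where it had -0.33 without DMSO replicate 1 and was called. No standard gene was called higher in either line with all libraries. Over the 77 standard genes tested in both lines, the log2 fold changes correlated at 0.34 (Pearson) and 0.31 (Spearman), a description over genes that share the libraries of each line.

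**Figure D4:**
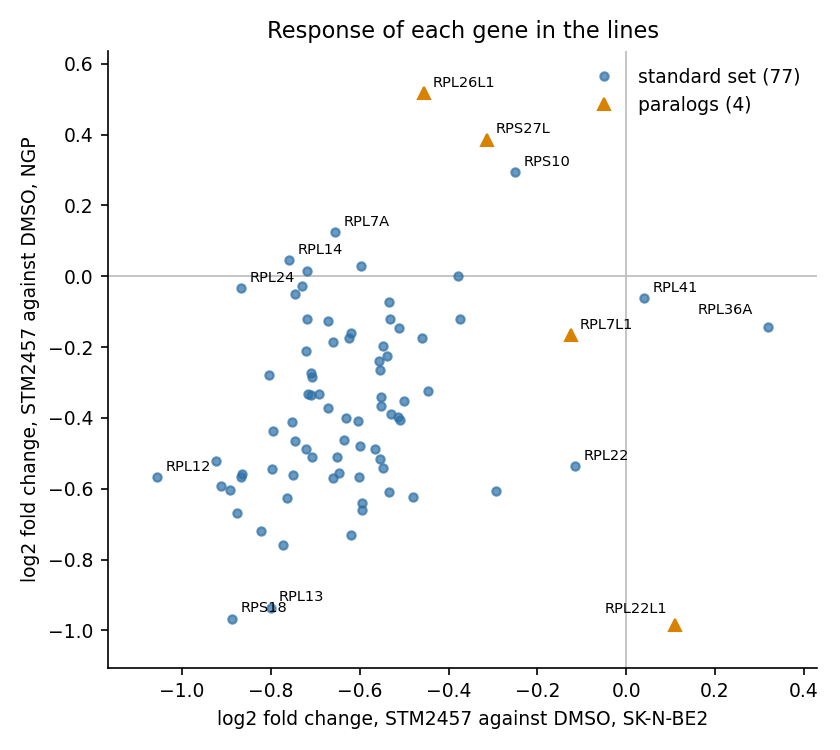
Each of the 81 genes tested in both lines is placed by its log2 fold change in SK-N-BE2 (horizontal) and NGP (vertical), with circles for the 77 standard genes and triangles for 4 paralogs. Most circles lie below 0 on both axes, while RPL26L1 and RPS27L lie above 0 only in NGP and RPL22L1 only in SK-N-BE2.

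The response itself differed between the lines for 9 of 84 genes in the contrast over all libraries, where edgeR's test called 30.9% of 14731 genes, 13.9% more negative and 17.0% more positive in SK-N-BE2. In 8 of the 9 the value was more negative in SK-N-BE2: the large-subunit genes RPL14, RPL24, RPL7A, RPL28, RPL19 and RPL6 and the paralogs RPL26L1 and RPS27L. In RPL22L1 it was more negative in NGP. Without NGP DMSO replicate 1, 57 genes were called, 56 of them more negative in SK-N-BE2, while over all genes 42.0% were called, 20.4% more negative and 21.6% more positive. Leaving out NGP DMSO replicate 3 gave 5 and leaving out SK-N-BE2 DMSO replicate 1 gave 15.

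In SK-N-BE2, RPL14 measured 598, 785 and 721 CPM with DMSO and 417, 428 and 431 CPM with STM2457 (log2 fold change -0.76, SE 0.10). In NGP it measured 991, 649 and 707 CPM and then 827, 768 and 822 CPM (0.05, SE 0.16), so that the treated libraries lay above 2 of the controls and below DMSO replicate 1. The difference of -0.79 (SE 0.20) had an edgeR adjusted p of 0.00793. For RPL7A the SK-N-BE2 values went from 1928, 2535 and 2132 CPM to 1389, 1432 and 1475 CPM, and those of NGP from 1817, 1101 and 1280 CPM to 1581, 1455 and 1529 CPM. Its responses differed by -0.76 (SE 0.22, edgeR adjusted p = 0.0158), and in NGP the treated libraries again lay below DMSO replicate 1 and above the other controls.

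RPL24 forms a bridge between the subunits. In SK-N-BE2 it measured 672, 980 and 861 CPM with DMSO and 450, 468 and 496 CPM with STM2457 (log2 fold change -0.87, SE 0.12). In NGP it measured 799, 423 and 522 CPM and then 579, 558 and 563 CPM. Its log2 fold change there was -0.03 with all libraries and 0.27 without DMSO replicate 1 (edgeR adjusted p = 0.910 and 0.0258), so its sign differed without that library. The difference between lines was -0.82 (SE 0.26, edgeR adjusted p = 0.0287) and was lost without some single libraries, to at most 0.0709.

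Members with particular roles were read in both lines. The stalk proteins RPLP0, RPLP1 and RPLP2, which recruit translation factors, all fell in SK-N-BE2, by log2 fold changes of -0.63, -0.62 and -0.80. RPLP0 went there from 2948, 4079 and 3110 CPM to 2297, 2232 and 2184 CPM, with no overlap. In NGP none of the 3 was called, at -0.40, -0.17 and -0.44, and without DMSO replicate 1 RPLP0 was called at -0.22 while RPLP1 and RPLP2 were not, at 0.12 and -0.11. RPL11, the partner of RPL5 in binding MDM2, had -0.56 in SK-N-BE2 (edgeR adjusted p = 0.000818). In NGP it was not called, at 1578, 907 and 922 CPM and then 1007, 907 and 964 CPM (-0.24, and 0.07 without DMSO replicate 1).

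RPS19 had log2 fold changes of -0.65 (called) in SK-N-BE2 and -0.51 (not called) in NGP, where it was called at -0.20 without DMSO replicate 1. RPSA, known also as the laminin receptor, had -0.62 (called) and -0.16 (not called), and 0.12 (not called) in NGP without DMSO replicate 1. RPSA stood at 833, 1221 and 903 CPM with DMSO in SK-N-BE2 and at 2495, 1400 and 1629 CPM in NGP, so the lines differed in its control level. RPS27A and FAU, made as fusions with ubiquitin or a ubiquitin-like protein, had -0.50 and -0.72 in SK-N-BE2 (both called) and -0.35 and -0.33 in NGP (neither called). The NGP values were 0.01 and -0.04 without DMSO replicate 1, again not called.

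The paralogs did not move as a block with the standard set. In SK-N-BE2, of the 5 tested, 2 fell, 1 rose and 2 were not called. In NGP, of the 5 tested, 3 rose, 1 fell and 1 was not called, and without DMSO replicate 1 3 rose and 2 fell. RPL22L1 (chromosome 3, 170864875 to 170870208, minus strand, GRCh38) stood in SK-N-BE2 at 15.6, 18.5 and 17.7 CPM with DMSO and 19.1, 17.4 and 20.8 CPM with STM2457, and the groups overlapped. In NGP it measured 39.5, 26.7 and 29.4 CPM and then 16.6, 16.7 and 14.9 CPM, without overlap (log2 fold change -0.99, SE 0.16, edgeR adjusted p = 0.00167). The difference between lines was 1.11 (SE 0.20, edgeR adjusted p = 0.00088). Its partner RPL22 measured 455, 336 and 346 CPM and then 280, 242 and 260 CPM in NGP (-0.54, SE 0.13). Without DMSO replicate 1 the NGP values were -0.80 for RPL22L1 and -0.38 for RPL22, both called. Per kilobase of exon, the RPL22L1 level was 19.1% ± 0.858 of that of RPL22 with DMSO and 14.1% ± 1.40 with STM2457 in NGP, and 15.7% ± 1.82 and 18.2% ± 1.93 in SK-N-BE2 (SD, n = 3).

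RPL26L1 (chromosome 5, 172958729 to 172969771, plus strand) moved in opposite directions in the lines. In SK-N-BE2 it measured 27.9, 33.1 and 34.9 CPM with DMSO and 22.6, 24.5 and 24.6 CPM with STM2457 (log2 fold change -0.45, SE 0.10, edgeR adjusted p = 0.00226). In NGP it went from 27.6, 18.6 and 20.3 CPM to 29.9, 32.2 and 32.8 CPM (0.52, SE 0.16, edgeR adjusted p = 0.0281). Without DMSO replicate 1 the NGP value was 0.70. The groups did not overlap in either line, and the difference was -0.96 (SE 0.20, edgeR adjusted p = 0.0021). The call in NGP was lost without some single libraries, to at most 0.101, while the call on the difference held without each library in turn. Its partner RPL26 fell in SK-N-BE2 (-0.71) and was not called in NGP (-0.27, and 0.03 without DMSO replicate 1).

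RPS27L (chromosome 15, 63125872 to 63158021, minus strand), a p53 target, had the same pattern at smaller size. It measured 25.3, 29.9 and 25.7 CPM and then 20.5, 21.0 and 25.3 CPM in SK-N-BE2, where the groups overlapped narrowly (log2 fold change -0.31, SE 0.11, edgeR adjusted p = 0.0297). In NGP it went from 18.8, 15.6 and 14.9 CPM to 21.8, 20.6 and 21.8 CPM with no overlap (0.39, SE 0.13, edgeR adjusted p = 0.0387, and 0.49 without DMSO replicate 1). The difference was -0.69 (SE 0.17, edgeR adjusted p = 0.00789). Each line's own call was lost without some single libraries, to at most 0.124 and 0.139, and that on the difference held, to at most 0.0261. RPS27 itself fell in SK-N-BE2 (-0.55) and was not called in NGP (-0.26, and 0.05 without DMSO replicate 1).

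RPL39L (chromosome 3, 187120948 to 187180908, minus strand), a paralog known from testis of the exit-tunnel protein RPL39, was the only gene of the set that rose in SK-N-BE2. It measured 12.0, 19.1 and 15.9 CPM with DMSO and 26.4, 22.4 and 23.9 CPM with STM2457, without overlap (log2 fold change 0.59, SE 0.15, edgeR adjusted p = 0.00367). RPL39 fell in the same libraries, from 398, 613 and 457 CPM to 319, 317 and 361 CPM (-0.59, SE 0.13). The RPL39L level per kilobase went from 6.60% ± 0.479 to 15.05% ± 1.77 of that of RPL39 (SD, n = 3). Most of the RPL39 transcript is also found elsewhere in the genome, and reads that map to several places were not counted. The ratio is therefore uncertain as a level. In NGP, RPL39L had no read in the DMSO libraries and 2 reads in all with STM2457, both in replicate 3. For reads counted singly, a count of 0 allows up to 3 reads, or 0.0586 to 0.0597 CPM in the NGP DMSO libraries. Since a fragment can add 2 reads, the limit is higher than that.

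RPL7L1 measured 298 to 375 CPM with DMSO and 299 to 316 CPM with STM2457 in SK-N-BE2, and 303 to 320 CPM and then 270 to 282 CPM in NGP. It was called in neither line with all libraries and at -0.18 in NGP without DMSO replicate 1, whereas its partner RPL7 fell in SK-N-BE2 (-0.60) and was not called in NGP (-0.48, and -0.18 without that library). RPL3L, a muscle form of RPL3, was called higher in NGP on 30 reads over the DMSO libraries and 81 over the STM2457 libraries. Its log2 fold change was 1.48 (SE 0.49) at an edgeR adjusted p of 0.0389, and 1.56 without DMSO replicate 1. RPL3 fell in SK-N-BE2 (-0.71) and was not called in NGP (-0.29, and -0.07 without DMSO replicate 1). RPL10L, known from testis, had 2 or 3 reads per group and was not tested, and RPL10 had -0.55 (called) in SK-N-BE2 and -0.37 (not called) in NGP, where it had -0.16 without DMSO replicate 1.

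**Figure D5:**
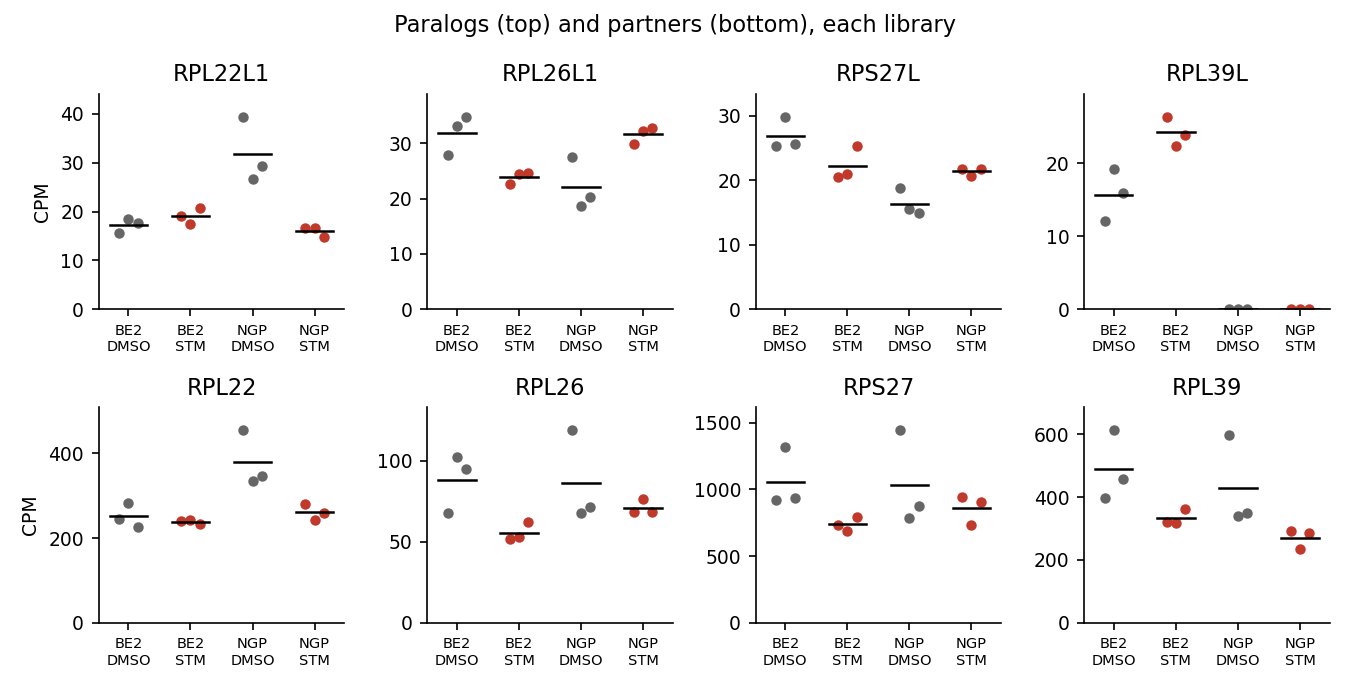
Each panel gives the CPM of a gene in every library (points; DMSO grey, STM2457 red) with the group mean (bar) and an axis from 0, for 4 paralogs above their partners; BE2 stands for SK-N-BE2 and STM for STM2457. RPL39L rose in SK-N-BE2 and sits at or near 0 in NGP, RPL22L1 fell in NGP from 39.5, 26.7 and 29.4 CPM, and RPL26L1 and RPS27L moved opposite ways in the lines.

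Genes of the set differed in how much of their transcript is also found elsewhere or lies inside another gene. Reads that map to several places and reads over exons of more than 1 gene were not counted, and how many were lost was not measured. Of the 78 standard genes, 35 had at least 10% of the 100-base windows of their transcript elsewhere in the genome, 12 at least 50% and 3 at least 90%: RPL21 (100%), RPS27 (94.1%) and RPL39 (92.8%). In SK-N-BE2 the 42 tested genes under 10% all fell, with a median of -0.66, and 31 of 35 fell among the others, with a median of -0.62. In NGP 13 of 43 and 10 of 35 fell, with medians of -0.44 and -0.37, and without DMSO replicate 1 18 and 11 fell, with medians of -0.14 and -0.10. Over all genes tested in NGP 22.2% were called lower, or 29.7% without that library. Without the genes of at least 10%, the SK-N-BE2 share of reads went from 5.01% ± 0.796 to 3.25% ± 0.0789 and the NGP share from 4.79% ± 1.19 to 3.52% ± 0.0629 (SD, n = 3).

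Overlap with another gene of the annotation touched fewer members. At least 40% of the transcript lay inside another gene for 6, among them RPL17 (96.9%, RPL17-C18orf32), RPS10 (84.0%, RPS10-NUDT3), RPL26 (65.3%), RPL10 (50.7%, DNASE1L1 on the other strand) and RPL36A (43.8%). With DMSO in SK-N-BE2, RPS10 measured 3.02 ± 0.590 CPM, RPL36A 4.88 ± 0.347 CPM and RPL17 12.4 ± 1.02 CPM (SD, n = 3). The counts of these genes are uncertain as levels and as changes.

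Other features were read beside the responses of 77 standard genes, as descriptions over genes that share libraries. In SK-N-BE2 the log2 fold change had a Pearson r of -0.57 with the log2 mean CPM (Spearman rho -0.36), -0.27 with GC content, -0.02 with transcript length and 0.19 with the share of windows found elsewhere. In NGP these values were -0.28, -0.05, 0.01 and 0.03. GGACT on the sense strand of the exons, a common setting of N6-methyladenosine, occurred at a median of 0.77 per kilobase in the 85 genes and 0.93 in the 17585 genes with a read. It was present in 87.1% and 94.9% of them. Its density had an r of 0.01 with the response in SK-N-BE2 and 0.09 in NGP.

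Falls were also counted by the start-site run. In SK-N-BE2, 43 of 47 standard genes with a run at the start fell, and 16 of 16 without one. The group without one included genes with a run close to the annotated start. When the run could begin to either side of the start, 57 of the 63 standard genes held one. The split therefore separates genes by the position of the run and cannot compare genes with and without the motif, which was not tested. In NGP 8 of 47 and 7 of 16 fell, and without DMSO replicate 1 13 of 47 and 8 of 16. Over all genes tested 27.8% were called lower in SK-N-BE2 and 22.2% in NGP, or 29.7% without DMSO replicate 1. In SK-N-BE2 genes with a run had a median log2 fold change of -0.65, beside -0.68 in those without. The NGP medians were -0.35 and -0.45, or -0.05 and -0.21 without DMSO replicate 1. Of the paralogs, RPL22L1, with a run, fell in NGP. Among those without one, RPL26L1 and RPS27L rose there, while RPL7L1 was not called with all libraries and fell without DMSO replicate 1. RPL10L, also without one, was not tested. RPL22, RPL41, RPS10 and RPL36A, the standard genes not called in SK-N-BE2, all had a run.

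Other genes of the pathway were read from fixed lists. Over all genes tested in SK-N-BE2 the shares called lower and higher were 27.8% and 26.9%. The NGP shares were 22.2% and 19.4%, or 29.7% and 27.6% without DMSO replicate 1. Among ribosomal genes outside the naming rule, RACK1, a small-subunit scaffold, fell in both lines (-0.86 and -0.63). The NGP call of RACK1 was lost without at least 1 library, to an edgeR adjusted p of at most 0.0539. RPL36AL, a retained copy of RPL36A, rose in NGP from 39.9 ± 13.9 to 108 ± 9.96 CPM (log2 fold change 1.44, SE 0.22, edgeR adjusted p = 0.00124). Its SK-N-BE2 value of 0.19 did not pass.

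The list of 21 other mRNAs known to carry the TOP motif holds elongation and initiation factors and includes RACK1. Of 20 tested, 16 fell and 1 rose in SK-N-BE2, with a median of -0.45, and 7 fell and 3 rose in NGP, with a median of -0.23. EEF1G was listed at 0 in every library. NOP53, a ribosome assembly factor, fell in both lines (-0.98 and -1.07), as did EIF3E (-0.69 and -0.52) and PABPC1, the poly(A) binding protein (-0.52 and -0.50). In NGP the call of NOP53 was lost without at least 1 library, to an edgeR adjusted p of at most 0.0562. NACA, of the nascent chain complex, fell in SK-N-BE2 (-0.87) and was not called in NGP (-0.21). EIF4A2 rose in both, from 396 ± 11.6 to 700 ± 25.04 CPM and from 266 ± 6.38 to 390 ± 10.2 CPM. Without NGP DMSO replicate 1 the NGP counts were 7 lower and 4 higher. The NGP median was then -0.06, with 10 values above 0 and 10 below.

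Of 22 regulators of TOP mRNA translation, 7 rose and 6 fell in SK-N-BE2, and 6 rose and 5 fell in NGP, or 7 and 11 without DMSO replicate 1. EIF4EBP1, the mTOR target that holds back cap-dependent translation, fell in both lines (-1.12 and -1.05), as did MLST8, a subunit of the mTOR complexes (-0.99 and -0.56). TIA1, which binds TOP mRNAs in stress, rose in both (0.67 and 0.53). LARP1, which binds the TOP motif, was called in neither (-0.08 and -0.01), while its paralog LARP1B fell in NGP (-0.82). DEPTOR, an mTOR inhibitor, rose in SK-N-BE2 (0.60) and fell in NGP (-2.20), from 6.76 ± 1.05 to 1.47 ± 0.211 CPM. The NGP calls of MLST8 and TIA1 were each lost without at least 1 library, to edgeR adjusted p values of at most 0.107 and 0.0505.

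Of 11 dedicated chaperones, which escort single ribosomal proteins, 3 rose and 2 fell in SK-N-BE2, and 1 rose and 2 fell in NGP, or 3 and 2 without DMSO replicate 1. GRWD1, the chaperone of RPL3, rose in SK-N-BE2 from 42.2 ± 2.29 to 76.2 ± 1.52 CPM (0.82), opposite in sign to RPL3. In NGP GRWD1 was at -0.22, with the same sign as RPL3, and neither was called. HEATR3, which acts on RPL5, rose in both lines (0.50 and 0.35), opposite in sign to its client. NAP1L1, also counted among the TOP mRNAs, fell in SK-N-BE2 (-0.57). In NGP PDCD2L (-0.56) and PDCD2 (-0.35) fell, as did RPS2, the client of PDCD2. The NGP calls of HEATR3, PDCD2L and PDCD2 were each lost without at least 1 library. Their edgeR adjusted p values then reached at most 0.0823, 0.132 and 0.0771.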

How the data were processed

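Per the labels' protocols, total RNA went through poly(A) selection before cDNA libraries were built with a SMART kit. The authors deposited whole-number read counts per gene, not normalized, made with featureCounts 2.0.5 on exons of GENCODE 33 protein-coding genes by gene name, per the file headers. The headers show paired mode without counting of pairs (a fragment can add 2 reads), no strand option and no multi-mapping or multi-overlap reads. The submitters' processing notes name Trimmomatic 0.36, HISAT2 2.1.0, Subread 1.5.3 and GRCh38. The counter version of the headers is a different one and the alignment names in them do not carry the name HISAT2, so which aligner made the counted alignments is not settled here. Samples were grouped by line and treatment in their titles.

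Each line was fitted on its 6 libraries with edgeR 4.0.16 under R 4.3.3 (filterByExpr with a minimum count of 10, TMM, quasi-likelihood test, Benjamini-Hochberg adjustment over all genes, threshold 0.05). The difference between lines, SK-N-BE2 minus NGP, was a contrast over all 12 libraries. "Called" means past that threshold, and "rose" and "fell" are used of called genes. CPM are on the TMM scale. Offsets removed the trend of each library with exon length and GC content in 20 bins. Copies were sought as 100-base windows of GENCODE 44 transcripts in hg38. No label states that replicates came from separate cultures, so p-values measure the spread between these samples, which may be technical. Libraries were compared in pairs within each group only. The closest pair, NGP STM2457 replicates 1 and 3, had a chi-square per degree of freedom of 2.83, and every other pair at least 8.60. Since a fragment can add 2 reads, sampling noise is higher on this scale than for reads counted singly. Whether the closest pair differed beyond sampling noise is therefore not settled. Counting error is small beside replicate spread at this depth, except in genes of few reads, and 3 replicates limit the precision. The fits were tested on simulated data.

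The genes, lists and tests were chosen with earlier results of these data known. Named in each line were up to 6 of the largest rises and falls among called genes of at least 10 CPM without overlap, up to 4 differences between lines each way, the 6 largest shared changes, paralogs with partners, RPL5, RPL11, the stalk, RPS6, RPS19, RPSA, and up to 3 called genes per list and line. Other genes were named after their values were seen, where a count was small or the lines differed. A few genes are not reported here by name. Alternatives were DESeq2 1.42.0 and other scalings, filters, designs, offsets and left-out libraries. Fits combining offsets with a left-out library, the fit without 2 control libraries, and the run at the exact start were added after seeing the data.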

Additional observations from a re-analysis of the deposited data

Results flagged for a closer look

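For 9 ribosomal protein genes the response to STM2457 differed between the lines, by the contrast of SK-N-BE2 minus NGP over all 12 libraries (edgeR, adjusted p under 0.05). The same test called 30.9% of all 14731 genes tested. Without NGP DMSO replicate 1 it called 57 genes of the set and 42.0% of all genes. Line, dose and sequencing run cannot be told apart in this contrast. The log2 difference was 1.11 for RPL22L1, -0.96 for RPL26L1, -0.79 for RPL14, -0.76 for RPL7A and -0.69 for RPS27L, and these 5 were called without each library in turn. It was -0.82 for RPL24, -0.72 for RPL28, -0.69 for RPL19 and -0.68 for RPL6, which were lost in 6, 9, 2 and 1 of the 12 fits without a library. In SK-N-BE2, RPL28 measured 409, 556 and 578 CPM with DMSO and 320, 308 and 334 CPM with STM2457, and in NGP 334, 197 and 230 CPM and then 251, 279 and 238 CPM. RPL19 went from 2012 ± 237 to 1245 ± 37.0 CPM in SK-N-BE2 and from 1830 ± 473 to 1793 ± 34.3 CPM in NGP (SD, n = 3). RPL6 went from 1867 ± 240 to 1142 ± 36.3 CPM and from 1466 ± 347 to 1413 ± 53.4 CPM.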

How the results depend on the processing

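The settings tried gave 1997 values for 97 named results that kept direction and side of the threshold, 55 that no longer passed it, 89 that passed it only then, and 59 that changed sign, in 20 results of which none was called with all libraries; 2 of the 59 passed the threshold, both RPL24 in NGP (0.27 without DMSO replicate 1, and 0.27 with offsets as well). The cause was not tested. Over the fits without a library, NGP log2 fold changes ran from -0.22 to 0.27 for RPL24, -0.38 to 0.071 for RPL11, -0.074 to 0.25 for RPL14, -0.42 to 0.032 for RPL26, -0.72 to -0.23 for RPL36, -0.024 to 0.36 for RPL7A, -0.35 to 0.12 for RPLP1, -0.43 to 0.053 for RPS27 and -0.33 to 0.12 for RPSA. Differences between lines ran from -0.16 to 0.47 for RPL13, -0.26 to 0.25 for RPL39, -2.61 to 0.62 for RPL39L, -0.27 to 0.036 for RPL5, -0.42 to 0.025 for RPL7, -0.031 to 0.15 for RPL7L1, -0.44 to 0.039 for RPL9, -0.24 to 0.28 for RPS15A, -0.13 to 0.25 for RPS18, -0.46 to 0.048 for RPS19 and -0.26 to 0.18 for RPS3A. In NGP, offsets for length and GC gave 0.048 for RPL24, -0.0053 for RPL14 and 0.0018 for RPL36, offsets for length alone 0.079 for RPL24, the replicate block 0.019 for RPL24, and the block with both offsets 0.080 for RPL24 and 0.0042 for RPL36. Both offsets without DMSO replicate 1 gave 0.0097 for RPL11, 0.034 for RPL36, 0.039 for RPLP1 and 0.13 for RPSA. For the difference, RPS3A (-9.8e-05 with all libraries) had 0.030 with GC offsets, 0.085 with both, 0.063 with length offsets, 0.025 without a filter and 0.083 with block and both offsets, and RPL7L1 had -0.011 with upper-quartile factors. Without NGP DMSO replicate 1 and SK-N-BE2 DMSO replicate 2 it was -0.13 for RPL13, -0.018 for RPL39, -0.053 for RPS15A and 0.21 for RPL7L1, whose sign was kept. When a log2 fold change of 1 or more in size was required, 1 gene was called in SK-N-BE2 (1 lower), 2 in NGP (1 lower) and 1 for the difference. With length and GC offsets 43 genes were called in NGP (41 lower) and 17 for the difference, and with GC offsets alone 14 for the difference. Offsets without NGP DMSO replicate 1 gave 54 in NGP (44 lower). Without NGP DMSO replicate 1 and SK-N-BE2 DMSO replicate 2 together, 41 differed between lines. Leaving out each library in turn gave 73 to 76 genes called in SK-N-BE2 (72 to 75 lower), 6 to 46 in NGP (6 to 46 lower) and 5 to 57 for the difference. The medians then ran from -0.74 to -0.48 and from -0.54 to -0.10, and the differences of read share from -3.98 to -2.55 and from -3.08 to -1.03 points. The share difference was -1.76 points in SK-N-BE2 over genes without near-identical copies, which are fewer, and -3.99 points in NGP by reads per kilobase. Same-numbered samples showed no strong shared deviation (SK-N-BE2 r of -0.14, 0.13 and 0.02, NGP r of 0.00, -0.20 and 0.09). With so few libraries these values cannot show whether the cultures were paired, which is not known. With the replicate number as a replicate block, 75 genes were called in SK-N-BE2, 26 in NGP and 11 for the difference. The block and the offsets together gave 48 in NGP (45 lower) and 22 for the difference. Depth limits RPL3L, RPL10L and, in NGP, RPL39L.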

Other observations

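The mitochondrial ribosome, whose proteins are also encoded in the nucleus, was read for comparison. Of 82 of its genes tested, 20 fell and 10 rose in SK-N-BE2, with a median log2 fold change of -0.07, where 27.8% and 26.9% of all genes tested were called lower and higher. In NGP 9 fell and 11 rose, with a median of 0.05, beside 22.2% and 19.4% of all genes tested. Without DMSO replicate 1 10 fell and 35 rose, with a median of 0.19, beside 29.7% and 27.6%. In SK-N-BE2 their share of reads was 0.469% ± 0.0526 with DMSO and 0.472% ± 0.00207 with STM2457, and in NGP 0.497% ± 0.0560 and 0.494% ± 0.00662 (SD, n = 3). MRPS6 rose in both lines, in NGP from 17.7, 11.2 and 14.3 CPM to 57.0, 39.7 and 55.6 CPM (1.82, SE 0.20) and in SK-N-BE2 by 0.63. MRPL40 fell in SK-N-BE2 (-1.07) and was not called in NGP (0.04), MRPL27 (0.90) and MRPL35 (0.86) rose in SK-N-BE2, and MRPS24 (1.00) and CHCHD1 (0.78) rose in NGP. MRPS24 was low there, at 0.835 ± 0.165 CPM with DMSO and 1.67 ± 0.423 CPM with STM2457. Its NGP call was lost without at least 1 library, to an edgeR adjusted p of at most 0.0904. A pyrimidine run stood exactly at a start in 6 of 74 mitochondrial ribosomal protein genes (8.11%).

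Levels within the cytosolic set spanned a wide range per kilobase of exon. With DMSO in SK-N-BE2, RPS2 (1673 ± 230 CPM per kilobase), RPS12 (1430 ± 293) and RPS18 stood highest, and their spreads overlapped. Of the genes with at least 40% of their transcript inside another gene, RPL36A stood at 1.23, RPS10 at 1.31, RPL17 at 5.02, RPL26 at 35.7 and RPL10 at 424 CPM per kilobase.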
